A study of Mus musculus with 9 samples.

Results

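The collagen, laminin and integrin genes, which encode the main proteins of the extracellular matrix and the receptors that bind it, were described in mouse pluripotent stem cells under 3 culture conditions. Members were chosen by symbol alone: a probe set with a single annotated gene whose symbol is Col, a number, a and a number, is Lama, Lamb or Lamc with a number, or is Itga or Itgb with a number or letter and nothing after it. Where a gene had several, the brightest over the 9 arrays was used. This gave 79 of the 19938 genes tested, of which 44 were collagens, 10 laminins and 25 integrins. Itga2b, whose name runs on after the number, is given as a neighbour and not as a member.

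The arrays fell into 3 groups of 3. Epiblast stem cells (EpiSCs) resemble the primed epiblast just before gastrulation. They were of strain CD1 and were kept either with CHIR99021, an inhibitor of GSK3, and XAV939, an inhibitor of tankyrase (CHIR/XAV EpiSCs), or with the growth factors FGF2 and activin (FGF2/activin EpiSCs). Embryonic stem cells (ESCs) resemble the naive epiblast of the blastocyst. They were of strain 129 and were kept in 2i, which by the usual meaning of that name is CHIR99021 with PD0325901, an inhibitor of MEK. The labels list all agents together for every sample, at 3 µM for CHIR99021, 2 µM for XAV939, 10 ng/ml for FGF2 and for activin, and 1 µM for PD0325901. All 3 groups shared GMEM medium with 10% fetal bovine serum, and the labels give no coating, feeder layer, passage or clone. Strain, cell type and medium cannot be told apart in either comparison with ESCs, whereas the 2 EpiSC groups share a strain. The labels do not say whether separate cultures lie behind the 3 arrays of each group, so p-values cover the spread between arrays, which may be technical.

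Values are log2 expression per probe set. The SD over the 3 arrays of a group had a median of 0.08 over the members and a maximum of 0.28. A gene is called here when limma's moderated test gave a Benjamini-Hochberg adjusted p under 0.05 over the 19938 genes, and a change of 2-fold is a log2 difference of 1 or more. The labelled cell types were checked by marker genes. All 7 naive markers fell by 2-fold or more in each EpiSC group against ESCs, and all 5 primed markers rose in both. Of 4 markers of both pluripotent states, 1 rose and 2 fell in each EpiSC group. In each group 1 fell by 2-fold or more, at -2.12 in CHIR/XAV EpiSCs and -2.51 in FGF2/activin EpiSCs. The log2 of their summed linear values was 12.87 to 12.95 in CHIR/XAV EpiSCs, 12.99 to 13.06 in FGF2/activin EpiSCs and 13.59 to 13.68 in ESCs. Fibroblast or feeder markers had a summed level, as log2 of the summed linear values, of 8.62 to 8.72 in CHIR/XAV EpiSCs, 9.79 to 9.99 in FGF2/activin EpiSCs and 8.50 to 8.55 in ESCs. Of 9 such markers measured, CHIR/XAV EpiSCs had 2 rises and 2 falls, and FGF2/activin EpiSCs had 5 rises and 1 fall. Over all genes 24.7% rose and 22.1% fell in CHIR/XAV EpiSCs, and 27.8% rose and 33.5% fell in FGF2/activin EpiSCs. Acta2, the smooth muscle actin gene, averaged 5.96 ± 0.06, 9.41 ± 0.13 and 6.98 ± 0.10 in the 3 groups in that order, while Dcn, Lum and Prrx1 lay between 4.30 and 4.64 in every group. Thy1, another of the list, rose by 1.77 in CHIR/XAV EpiSCs and 0.25 in FGF2/activin EpiSCs. In FGF2/activin EpiSCs S100a4 rose by 0.78, Twist2 by 0.43 and Postn by 0.36, and Pdgfrb fell in both groups, at -0.21 and -0.72. Extraembryonic endoderm markers summed to 8.41 to 8.58 in CHIR/XAV EpiSCs, 8.47 to 8.56 in FGF2/activin EpiSCs and 8.10 to 8.17 in ESCs. Of those 8 markers 1 rose and 1 fell in CHIR/XAV EpiSCs, and 2 rose and 4 fell in FGF2/activin EpiSCs. Dab2 rose by 1.51 and 1.56, Gata6 changed by 0.20 (not called) and 0.50 (called), and Foxa2 had group means of 5.43 to 5.63 with no call. Gata4, Sox17, Sox7, Afp and Ttr had group means of 4.61 to 5.25 and none of them rose. Mesoderm markers summed to 7.65 to 7.73 in CHIR/XAV EpiSCs, 7.75 to 7.85 in FGF2/activin EpiSCs and 7.51 to 7.64 in ESCs. Of the 6, 2 rose and 1 fell in CHIR/XAV EpiSCs, and 2 rose and 2 fell in FGF2/activin EpiSCs. Hand1 rose by 0.51 and 1.11 and Kdr by 0.51 and 0.64. Blood and endothelium markers summed to 8.32 to 8.44, 7.98 to 8.04 and 9.01 to 9.11 in the same order of groups. Of these 7, 2 rose and 1 fell in CHIR/XAV EpiSCs, and 1 rose and 2 fell in FGF2/activin EpiSCs. Pecam1 fell by 2-fold or more in both, at -3.15 and -3.36. The part of other cell types in the results below was not tested. In bulk RNA, fewer cells that express a gene and less of its RNA per cell cannot be told apart.

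Laminins are trimers of an alpha, a beta and a gamma chain that polymerise into the sheet on which basement membranes are built. Type IV collagen forms the second network of that sheet, while fibril-forming collagens make up the fibres of connective tissue. Integrins are pairs of an alpha and a beta subunit that bind these proteins outside the cell and connect to actin inside it through adaptors such as talin, kindlin and parvin. In the embryo the epiblast rests on a laminin basement membrane, and the laminin receptors of its cells help to organise it into an epithelium.

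A few promoters are shown because they belong to the members on which the results turn: Itga3, Lama5 and Lamb1, which were higher in both EpiSC groups, and Col4a1 with Col4a2, a gene pair that is read in opposite directions from a shared promoter. RefSeq windows of GRCm38.p6 from 250 bases before to 50 after a start site were matched for 57 of the 79 members, and 6 of them had a second window, among them Itga3. The windows below lie at chr11:95076665-95076964 on the minus strand (Itga3, its first window), chr2:180225810-180226109 on the minus strand (Lama5), chr12:31265043-31265342 on the plus strand (Lamb1), chr8:11312777-11313076 on the minus strand (Col4a1) and chr8:11312555-11312854 on the plus strand (Col4a2). Each is written 5′ to 3′ on the strand of its gene, and capitals mark GC boxes (GGGCGG or, on the other strand, CCGCCC) and CCAAT boxes (CCAAT or ATTGG).
Itga3: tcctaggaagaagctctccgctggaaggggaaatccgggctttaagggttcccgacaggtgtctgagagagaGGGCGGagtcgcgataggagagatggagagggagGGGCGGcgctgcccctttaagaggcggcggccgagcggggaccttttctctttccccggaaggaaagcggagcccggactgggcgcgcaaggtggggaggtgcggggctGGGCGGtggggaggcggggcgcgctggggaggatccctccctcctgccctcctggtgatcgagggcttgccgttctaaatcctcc
Lama5: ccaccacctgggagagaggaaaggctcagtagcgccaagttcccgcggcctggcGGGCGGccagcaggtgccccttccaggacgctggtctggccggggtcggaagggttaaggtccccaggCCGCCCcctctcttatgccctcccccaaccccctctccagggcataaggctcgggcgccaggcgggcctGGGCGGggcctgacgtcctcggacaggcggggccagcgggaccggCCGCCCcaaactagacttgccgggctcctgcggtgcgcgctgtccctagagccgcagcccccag
Lamb1: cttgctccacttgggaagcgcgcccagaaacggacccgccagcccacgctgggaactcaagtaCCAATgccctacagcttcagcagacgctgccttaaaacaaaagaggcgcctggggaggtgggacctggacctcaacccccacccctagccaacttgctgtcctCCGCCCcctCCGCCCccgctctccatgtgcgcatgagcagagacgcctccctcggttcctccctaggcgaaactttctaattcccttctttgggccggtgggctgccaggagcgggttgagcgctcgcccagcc
Col4a1: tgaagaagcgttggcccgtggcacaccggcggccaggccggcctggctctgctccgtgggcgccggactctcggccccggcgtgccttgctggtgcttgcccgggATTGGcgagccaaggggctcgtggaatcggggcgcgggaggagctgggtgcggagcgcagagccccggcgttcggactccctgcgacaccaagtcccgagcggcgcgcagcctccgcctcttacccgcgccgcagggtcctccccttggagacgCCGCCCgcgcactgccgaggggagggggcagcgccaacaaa
Col4a2: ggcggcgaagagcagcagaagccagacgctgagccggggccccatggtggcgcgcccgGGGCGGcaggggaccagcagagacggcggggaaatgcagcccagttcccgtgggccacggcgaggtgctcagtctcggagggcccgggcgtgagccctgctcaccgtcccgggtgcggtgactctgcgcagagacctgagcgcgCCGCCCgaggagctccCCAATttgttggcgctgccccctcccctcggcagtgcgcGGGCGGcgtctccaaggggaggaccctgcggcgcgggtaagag

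The windows of Col4a1 and Col4a2 share 78 bases, and their annotated start sites lie 21 bases apart. The Lama5 window held 4 GC boxes, that of Itga3 held 3, that of Col4a2 held 3, that of Lamb1 held 2 and that of Col4a1 held 1. A CCAAT box was found once each in the Lamb1, Col4a1 and Col4a2 windows. Neither a TATA box (TATAAA) nor an AP-1 site (TGANTCA) was found in these 5 windows, with both strands read and matches of different motifs allowed to overlap. The second Itga3 window, not printed, held 1 GC box, 1 CCAAT box and 1 AP-1 site. Over all 32851 windows, 35.7% held a GC box, 37.4% a CCAAT box, 13.6% the TATA letters and 7.81% the AP-1 letters, against 35, 17, 5 and 4 of the 63 windows of members.

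Against ESCs, changes of 2-fold or more among the members were mostly rises, and they were more numerous in FGF2/activin EpiSCs than in CHIR/XAV EpiSCs. In CHIR/XAV EpiSCs 6 members rose by 2-fold or more, where 5.03% of all genes did, and 2 fell, where 3.3% did. In FGF2/activin EpiSCs 12 members rose by 2-fold or more (15.2% of members, with 6.66% of all genes) and 2 fell (3.45% of all genes). Itga3, Itgb5, Itgb1, Lama5, Lamb1 and Col6a5 made up the rises seen in both EpiSC groups. Itga8, Itgb8, Itga5, Itga1, Itgb4 and Col12a1 passed 2-fold in FGF2/activin EpiSCs alone. Lama1 and Itga9 fell in both, and no member went by 2-fold in opposite directions in the 2 EpiSC groups. The 2 comparisons share the 3 ESC arrays.

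Without the fold limit, 17 members rose (24.7% of all genes did) and 17 fell (22.1%) in CHIR/XAV EpiSCs, a share of members near that of all genes. In FGF2/activin EpiSCs 27 rose (34.2% of members, 27.8% of all genes) and 32 fell (40.5% of members, 33.5% of all genes). Many of these calls were small and in dim genes: 54 members, 37 of them collagens, had all 3 group means under 6, and 41 lay in the dimmest 40% of genes. The median log2 change over all members was -0.09 in CHIR/XAV EpiSCs and -0.12 in FGF2/activin EpiSCs, with -0.03 and -0.08 over all genes. When the dimmest 40% of genes were left out the medians of members were 0.020 and 0.49, and those of all genes left were 0.043 and 0.090. With each array centred on its median, 13 members rose and 38 fell in CHIR/XAV EpiSCs (25.5% of calls higher). All genes moved the same way under that centring: 35% of their calls were higher, against 52.7% as deposited, and their median moved by -0.10.

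Among the laminin alpha chains, the EpiSCs had less Lama1 and more Lama5 RNA than ESCs. Lama1 encodes the alpha chain of laminin-111, the laminin of the earliest embryonic basement membranes. Its log2 values were 5.24, 5.34 and 5.33 in CHIR/XAV EpiSCs, 5.19, 5.31 and 5.35 in FGF2/activin EpiSCs, and 7.08, 7.09 and 7.03 in ESCs. All 6 EpiSC arrays lay below all 3 ESC arrays, and the 2 EpiSC groups overlapped. The log2 change was -1.77 ± 0.07 (SE, n = 3 arrays a group, adjusted p = 3.28e-11) in CHIR/XAV EpiSCs and -1.79 ± 0.07 (adjusted p = 2.26e-11) in FGF2/activin EpiSCs. Lama5, the alpha chain of laminin-511, a substrate on which pluripotent cells attach and grow, went the other way. It measured 8.08, 8.14 and 8.53 in CHIR/XAV EpiSCs, 8.56, 8.59 and 8.54 in FGF2/activin EpiSCs, and 6.99, 7.002 and 6.92 in ESCs. It rose 2.42-fold in CHIR/XAV EpiSCs (log2 change 1.28 ± 0.10, adjusted p = 7.52e-08) and 3.01-fold in FGF2/activin EpiSCs (1.59 ± 0.10, adjusted p = 5.23e-09).

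Lamb1, the beta chain that both of these laminins contain, also rose in both EpiSC groups. Its values were 8.56, 8.68 and 8.89 in CHIR/XAV EpiSCs, 9.34, 9.38 and 9.36 in FGF2/activin EpiSCs, and 7.63, 7.56 and 7.34 in ESCs. None of the 3 groups overlapped another, and the rise was 2.30-fold in CHIR/XAV EpiSCs (adjusted p = 6.71e-08) and 3.60-fold in FGF2/activin EpiSCs (adjusted p = 4.41e-10). Lamc1, the gamma chain they share, was not called in CHIR/XAV EpiSCs, where it measured 8.81, 8.95 and 9.33, against 9.21, 9.25 and 9.07 in ESCs. Without CHIR/XAV array 3 it was called lower, at -0.30 (adjusted p = 0.00951). That array had the highest value of its group for Lama5, Lamb1 and Lamc1. In FGF2/activin EpiSCs Lamc1 measured 9.64, 9.59 and 9.69 and rose by 0.47 ± 0.11 (adjusted p = 0.0021). Of the other chains, Lama3, part of the laminin of epidermal attachment, rose by 0.85 and 0.52 in CHIR/XAV and FGF2/activin EpiSCs. Lamb2 rose by 0.61 in FGF2/activin EpiSCs, and Lama4, a chain of vessel walls, rose by 0.42 in CHIR/XAV EpiSCs. Lamc3 fell in both, at -0.26 (adjusted p = 0.00279) and -0.29 (adjusted p = 0.00113). Lama3, Lama4 and Lamc3 were dim: Lama4 averaged 4.93, 4.45 and 4.51 in CHIR/XAV EpiSCs, FGF2/activin EpiSCs and ESCs, Lama3 5.75, 5.42 and 4.90, and Lamc3 5.05, 5.02 and 5.32. Lama3, Lamb2, Lama4 and Lamc3 were named after their values had been seen. In all, 4 of the 10 laminins rose and 2 fell in CHIR/XAV EpiSCs, where 24.7% and 22.1% of all genes did. In FGF2/activin EpiSCs 5 rose and 2 fell, where 27.8% and 33.5% of all genes did. The median changes of the laminins were 0.09 and 0.31.

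**Figure D1:**
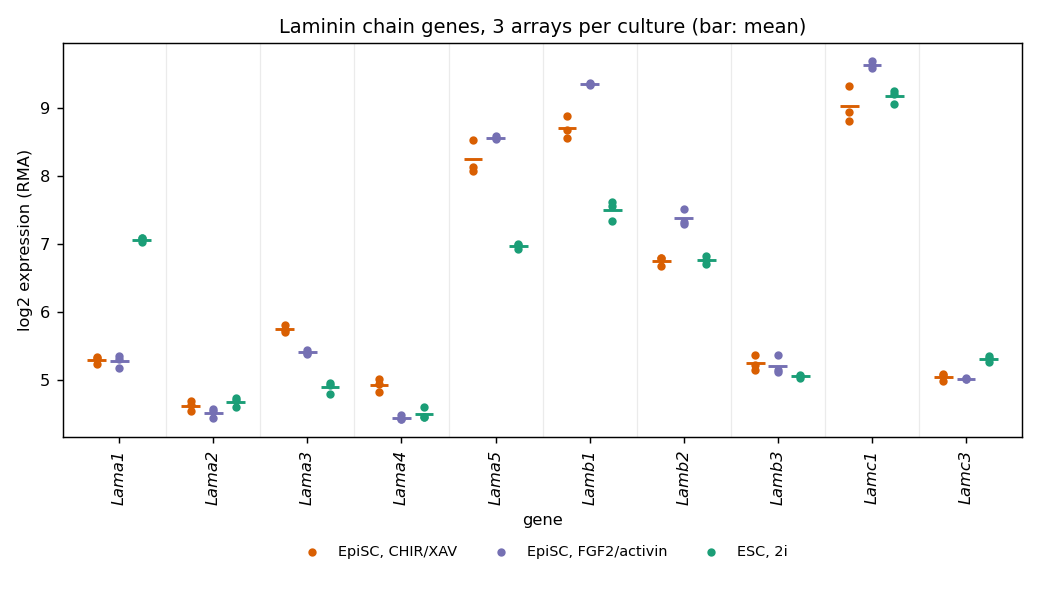
Log2 expression (y axis) of the 10 laminin chain genes (x axis) on each of the 9 arrays, with CHIR/XAV EpiSCs, FGF2/activin EpiSCs and 2i ESCs from left to right for each gene. Points are arrays and bars are group means. Lama1 lies near 5.3 in both EpiSC groups and at 7.07 in ESCs, while Lama5 and Lamb1 lie higher in both EpiSC groups than in ESCs.

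The laminin-binding integrin Itga3 had the widest difference of any member. The alpha 3 subunit pairs with beta 1 as a receptor for laminin-511 and related laminins. Its log2 values were 8.55, 8.77 and 8.68 in CHIR/XAV EpiSCs, 9.83, 9.97 and 9.79 in FGF2/activin EpiSCs, and 5.83, 5.61 and 5.62 in ESCs. The 3 groups were well apart, with rises of 7.89-fold in CHIR/XAV EpiSCs (log2 change 2.98 ± 0.08, adjusted p = 1.43e-12) and 18.1-fold in FGF2/activin EpiSCs (4.18 ± 0.08, adjusted p = 3.9e-14). Itga6, the other main laminin receptor subunit of pluripotent cells, was at 9.55, 9.67 and 9.60 in CHIR/XAV EpiSCs, 10.17, 10.27 and 10.10 in FGF2/activin EpiSCs, and 9.45, 9.40 and 9.30 in ESCs. It rose by 0.80 in FGF2/activin EpiSCs (adjusted p = 2.88e-07). Its rise of 0.22 in CHIR/XAV EpiSCs (adjusted p = 0.0197) was no longer called with arrays centred on their medians (0.12, adjusted p = 0.158), without ESC array 3 (0.18) or without CHIR/XAV array 2 (0.19). Itga7, the third of this class and known from muscle, was called in neither group.

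The RGD-binding alpha subunits recognise fibronectin, vitronectin and latent TGF-beta through the Arg-Gly-Asp motif, and all 3 rose in FGF2/activin EpiSCs. Itga5, the fibronectin receptor subunit, measured 6.95, 7.06 and 7.05 in CHIR/XAV EpiSCs, 9.38, 9.39 and 9.24 in FGF2/activin EpiSCs, and 7.45, 7.54 and 7.54 in ESCs. It rose 3.55-fold in FGF2/activin EpiSCs (log2 change 1.83 ± 0.07, adjusted p = 2.31e-11) and fell in CHIR/XAV EpiSCs (-0.49 ± 0.07, adjusted p = 3.76e-05). Itgav, a subunit shared by several receptors for vitronectin and TGF-beta, showed the same order. Its values were 8.58, 8.63 and 8.77 in CHIR/XAV EpiSCs, 9.89, 9.91 and 9.92 in FGF2/activin EpiSCs, and 9.11, 9.22 and 9.25 in ESCs. It rose by 0.71 ± 0.07 in FGF2/activin EpiSCs (adjusted p = 8.85e-07) and fell by 0.53 in CHIR/XAV EpiSCs (adjusted p = 2.02e-05). Itga8, the nephronectin receptor subunit known from kidney development, was at 5.85, 5.97 and 5.94 in CHIR/XAV EpiSCs, 8.27, 8.32 and 8.27 in FGF2/activin EpiSCs, and 4.90, 4.81 and 5.15 in ESCs. It rose in both EpiSC groups, by 0.97 ± 0.08 in CHIR/XAV EpiSCs (adjusted p = 2.46e-07) and by 3.33 ± 0.08 in FGF2/activin EpiSCs (adjusted p = 2.93e-13).

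Of the 4 collagen-binding alpha subunits, Itga1 alone rose. Its values were 5.70, 5.67 and 5.70 in CHIR/XAV EpiSCs, 7.24, 7.47 and 7.36 in FGF2/activin EpiSCs, and 5.70, 5.99 and 5.78 in ESCs. The change in FGF2/activin EpiSCs was 1.53 ± 0.08 (2.89-fold, adjusted p = 1.21e-09), and that in CHIR/XAV EpiSCs was -0.14 (adjusted p = 0.205). The change in CHIR/XAV EpiSCs was called lower with median centring (-0.24, adjusted p = 0.027) and with quantile normalization (-0.26, adjusted p = 0.0249). The other 3, Itga2, Itga10 and Itga11, lay between 4.67 and 5.25 in every group. Itga9, a receptor subunit for tenascin and for fibronectin with the EIIIA domain, was the integrin that fell by 2-fold. It measured 5.28, 5.29 and 5.09 in CHIR/XAV EpiSCs, 5.57, 5.82 and 5.65 in FGF2/activin EpiSCs, and 7.21, 7.01 and 6.97 in ESCs, with log2 changes of -1.84 ± 0.09 (adjusted p = 4.66e-10) and -1.38 ± 0.09 (adjusted p = 8.43e-09). Itga4, the related receptor subunit for VCAM1 and fibronectin, which was named after its values had been seen, rose in CHIR/XAV EpiSCs (0.71, adjusted p = 2.43e-05) and was at -0.02 in FGF2/activin EpiSCs. The 5 leukocyte alpha subunits were low, with group means of 4.44 to 4.96 apart from Itgad at 6.17 to 6.49. Itgad rose by 0.32 in FGF2/activin EpiSCs (adjusted p = 0.0449), but its groups overlapped, its second probe set stood at -0.21, and leaving out a single array could end the call (0.19 without ESC array 2, 0.20 without FGF2/activin array 3). Itga2b, the platelet subunit outside the name rule, averaged 5.11 ± 0.17, 5.02 ± 0.05 and 5.19 ± 0.05 in CHIR/XAV EpiSCs, FGF2/activin EpiSCs and ESCs and was not called.

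Among the beta subunits, Itgb1 and Itgb5 rose in both EpiSC groups. Itgb1, the partner of most matrix-binding alpha subunits, was at 10.30, 10.38 and 10.38 in CHIR/XAV EpiSCs, 11.05, 11.21 and 11.12 in FGF2/activin EpiSCs, and 9.38, 9.34 and 9.21 in ESCs. It rose 2.06-fold in CHIR/XAV EpiSCs (log2 change 1.04 ± 0.07, adjusted p = 1.91e-08), close to the 2-fold limit, and 3.52-fold in FGF2/activin EpiSCs (adjusted p = 3.42e-11). Itgb5, which pairs with alpha V as a vitronectin receptor, measured 9.89, 10.01 and 9.95 in CHIR/XAV EpiSCs, 9.86, 9.94 and 9.86 in FGF2/activin EpiSCs, and 8.41, 8.41 and 8.18 in ESCs. Its rises of 3.07-fold (adjusted p = 3.5e-10) and 2.93-fold (adjusted p = 3.97e-10) left the 2 EpiSC groups overlapping. Itgb8, whose pair with alpha V activates latent TGF-beta, was at 5.88, 5.97 and 6.02 in CHIR/XAV EpiSCs, 7.18, 7.13 and 7.30 in FGF2/activin EpiSCs, and 4.98, 5.05 and 5.31 in ESCs. It rose by 0.84 ± 0.09 in CHIR/XAV EpiSCs (adjusted p = 1.84e-06) and by 2.09 ± 0.09 in FGF2/activin EpiSCs (adjusted p = 7.32e-11).

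Itgb4, the partner of alpha 6 in hemidesmosomes, and Itgb3, another partner of alpha V in vitronectin receptors, went in opposite directions in the 2 EpiSC groups. Itgb4 measured 5.41, 5.43 and 5.31 in CHIR/XAV EpiSCs, 6.78, 6.83 and 6.70 in FGF2/activin EpiSCs, and 5.67, 5.67 and 5.65 in ESCs. It fell by 0.28 in CHIR/XAV EpiSCs (adjusted p = 0.00258) and rose by 1.11 ± 0.07 in FGF2/activin EpiSCs (adjusted p = 2.99e-09). Itgb3, named after its values had been seen, averaged 4.89 ± 0.06 in CHIR/XAV EpiSCs, 6.02 ± 0.15 in FGF2/activin EpiSCs and 5.25 ± 0.12 in ESCs (SD, n = 3 each). It fell by 0.36 in CHIR/XAV EpiSCs (adjusted p = 0.00316) and rose by 0.77 in FGF2/activin EpiSCs (adjusted p = 2.87e-06). Itgb2, a leukocyte beta subunit, also named afterwards, rose by 0.47 and 0.78 in CHIR/XAV and FGF2/activin EpiSCs. It was dim, with means of 5.24, 5.55 and 4.77 in CHIR/XAV EpiSCs, FGF2/activin EpiSCs and ESCs. Itgb7, another leukocyte beta subunit, was called lower in both, at -0.31 and -0.38. Of the 5 leukocyte alpha subunits, 1 fell in CHIR/XAV EpiSCs (22.1% of all genes). In FGF2/activin EpiSCs 1 of them rose and 3 fell (27.8% and 33.5%). Of the 7 blood and endothelium markers, 2 rose, 1 fell and 4 were not called in CHIR/XAV EpiSCs. Spi1 rose there by 0.81 and Cd34 by 0.75, while Pecam1 was at -3.15. In FGF2/activin EpiSCs Spi1 stood at -0.0096 (not called), Cd34 at -1.10 and Pecam1 at -3.36. The summed level of the list was 8.32 to 8.44 in CHIR/XAV EpiSCs and 9.01 to 9.11 in ESCs. Ptprc, the pan-leukocyte marker, was not called in either and had group means of 4.80 to 5.01. The part of such cells in the changes of Itgb2, Itga4 and Lama4 was not tested. Over the family of 25 integrins, 8 rose and 8 fell in CHIR/XAV EpiSCs (24.7% and 22.1% of all genes). By 2-fold or more, 3 rose and 1 fell (5.03% and 3.3% of all genes). In FGF2/activin EpiSCs 13 rose and 7 fell (27.8% and 33.5%), 8 and 1 of them by 2-fold or more (6.66% and 3.45%). The 13 rises in FGF2/activin EpiSCs include 6 among the 8 beta subunits. The median change over the integrins was -0.05 in CHIR/XAV EpiSCs and 0.32 in FGF2/activin EpiSCs, beside -0.03 and -0.08 over all genes.

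**Figure D2:**
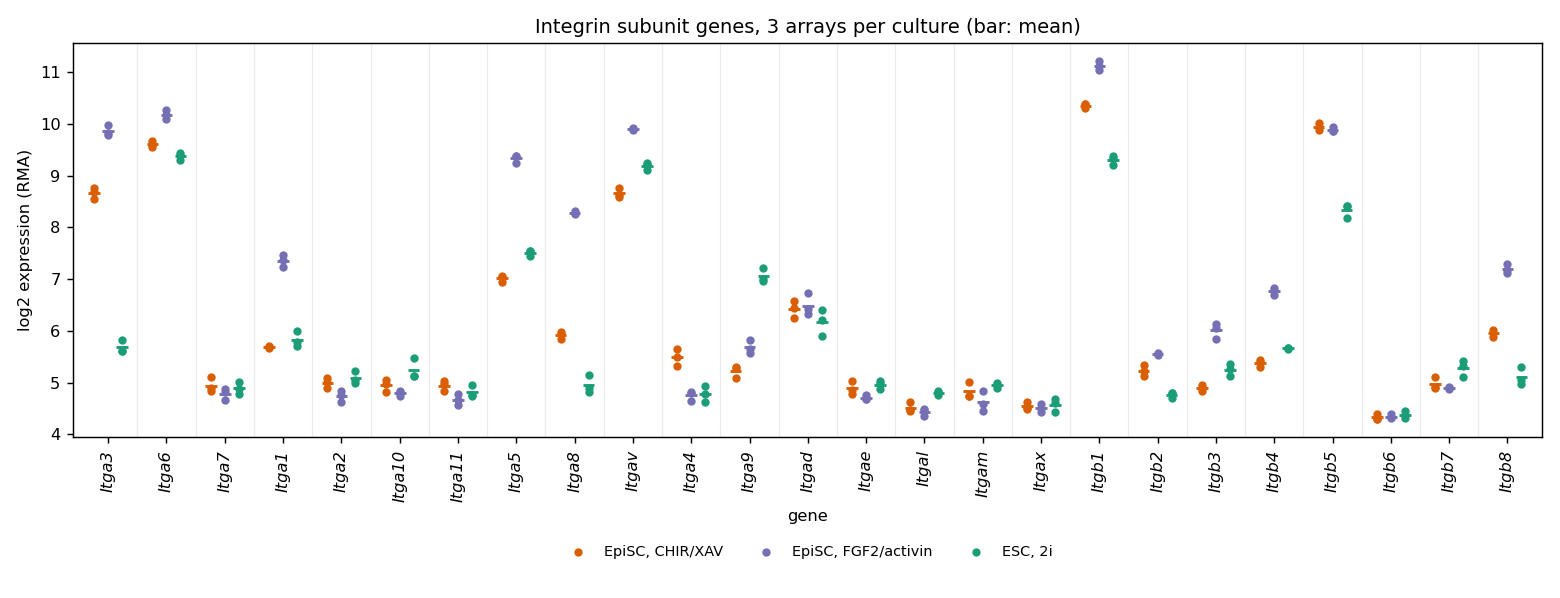
Log2 expression (y axis) of the 25 integrin subunit genes (x axis) on each of the 9 arrays, with CHIR/XAV EpiSCs, FGF2/activin EpiSCs and 2i ESCs from left to right for each gene, and bars at group means. Itga3, Itgb1, Itgb5, Itga8 and Itgb8 lie above ESCs in both EpiSC groups, Itga5, Itgav, Itgb3 and Itgb4 lie above ESCs in FGF2/activin EpiSCs and below them in CHIR/XAV EpiSCs, and Itga9 lies below ESCs in both.

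Most collagens were dim, and few changed by much. Of the 44, 5 rose and 7 fell in CHIR/XAV EpiSCs, where 24.7% and 22.1% of all genes did. In FGF2/activin EpiSCs 9 rose and 23 fell, where 27.8% and 33.5% of all genes did. The median changes were -0.11 and -0.19, beside -0.03 and -0.08 over all genes. A rise of 2-fold or more was seen in 1 collagen in CHIR/XAV EpiSCs (5.03% of all genes) and in 2 in FGF2/activin EpiSCs (6.66%). No collagen fell by 2-fold in limma's fit in either. The 23 falls in FGF2/activin EpiSCs ran from -0.19 to -0.53, all in genes with every group mean under 6. Collagens I and III, the fibril collagens of connective tissue and of fibroblasts, lay within 0.2 of ESCs on the deposited scale. Col1a1 averaged 5.94 ± 0.04 in CHIR/XAV EpiSCs, 6.06 ± 0.05 in FGF2/activin EpiSCs and 5.94 ± 0.04 in ESCs, with no call. Col3a1 averaged 5.24 ± 0.16, 5.19 ± 0.10 and 5.35 ± 0.03 in the same order, with no call. With median centring it was called lower in both EpiSC groups, at -0.21 (adjusted p = 0.0455) and -0.23 (adjusted p = 0.0253). Col1a2 changed by 0.11 in CHIR/XAV EpiSCs (adjusted p = 0.248) and by 0.18 in FGF2/activin EpiSCs (adjusted p = 0.0399), a call that was lost with median centring (0.11) and without any single ESC array or FGF2/activin array 2 or 3 (0.15 to 0.20). Col5a1, which regulates the width of collagen fibrils and was named after its values had been seen, rose by 0.41 and 0.89 in CHIR/XAV and FGF2/activin EpiSCs.

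The type IV pair Col4a1 and Col4a2, whose chains form the common network of basement membranes and whose windows are printed above, rose in FGF2/activin EpiSCs. Col4a1 measured 5.66, 5.61 and 5.39 in CHIR/XAV EpiSCs, 6.24, 6.35 and 6.26 in FGF2/activin EpiSCs, and 5.37, 5.43 and 5.44 in ESCs. Col4a2 measured 5.18, 5.17 and 5.08 in CHIR/XAV EpiSCs, 5.83, 5.84 and 5.76 in FGF2/activin EpiSCs, and 5.04, 5.15 and 5.13 in ESCs. In both genes the FGF2/activin arrays lay above all others and the remaining groups overlapped. The log2 changes in FGF2/activin EpiSCs were 0.87 ± 0.08 for Col4a1 (1.82-fold, adjusted p = 2.86e-07) and 0.70 ± 0.06 for Col4a2 (1.63-fold, adjusted p = 4.34e-07). In CHIR/XAV EpiSCs they were 0.14 (adjusted p = 0.165) and 0.04 (adjusted p = 0.678), and that of Col4a1 was called without CHIR/XAV array 3 (0.22, adjusted p = 0.0245). None of the other 4 type IV chains rose in either group, and Col4a5, on the X chromosome and named after its values had been seen, fell in both, at -0.25 and -0.42, the first of which was lost without ESC array 2 or 3 or CHIR/XAV array 3 (-0.22 to -0.21).

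Among the remaining collagens, Col12a1, which binds to collagen fibrils, rose in FGF2/activin EpiSCs alone. Its values were 4.72, 4.57 and 4.68 in CHIR/XAV EpiSCs, 5.87, 5.95 and 5.65 in FGF2/activin EpiSCs, and 4.74, 4.64 and 4.84 in ESCs, a log2 change of 1.08 ± 0.09 in FGF2/activin EpiSCs (adjusted p = 8.15e-08). Col6a5, a chain of the beaded filaments of type VI collagen, measured 6.41, 6.71 and 6.69 in CHIR/XAV EpiSCs, 7.09, 7.08 and 7.01 in FGF2/activin EpiSCs, and 5.42, 5.46 and 5.49 in ESCs. Its rises of 1.15 and 1.61 were seen on the kept probe set only: its second probe set changed by -0.11 and -0.07, so the 2 disagreed. Col7a1, the anchoring fibril collagen of skin, rose by 0.32 in FGF2/activin EpiSCs (adjusted p = 0.00202). In CHIR/XAV EpiSCs it was called lower only with median centring (-0.21, adjusted p = 0.0272) and quantile normalization (-0.20, adjusted p = 0.0254). Col13a1, a transmembrane collagen, fell in both, at -0.20 and -0.53, the first of which was lost without ESC array 2 or 3 or CHIR/XAV array 1 or 3 (-0.19 to -0.18). Col9a3, a cartilage collagen, fell by 0.36 in FGF2/activin EpiSCs (adjusted p = 0.00295). In CHIR/XAV EpiSCs it was called lower only with median centring (-0.27, adjusted p = 0.0181) and quantile normalization (-0.28, adjusted p = 0.0149). Col2a1, the main cartilage collagen, rose by 0.23 and 0.18, and neither call was kept with median centring or quantile normalization. The second was also lost without ESC array 1 or FGF2/activin array 2 or 3 (0.14 to 0.16). Col18a1, a basement membrane collagen whose end fragment is endostatin, averaged 7.31 ± 0.08, 7.24 ± 0.11 and 7.17 ± 0.05 in CHIR/XAV EpiSCs, FGF2/activin EpiSCs and ESCs and was not called. With quantile normalization it was called lower in FGF2/activin EpiSCs, at -0.18 (adjusted p = 0.0268).

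**Figure D3:**
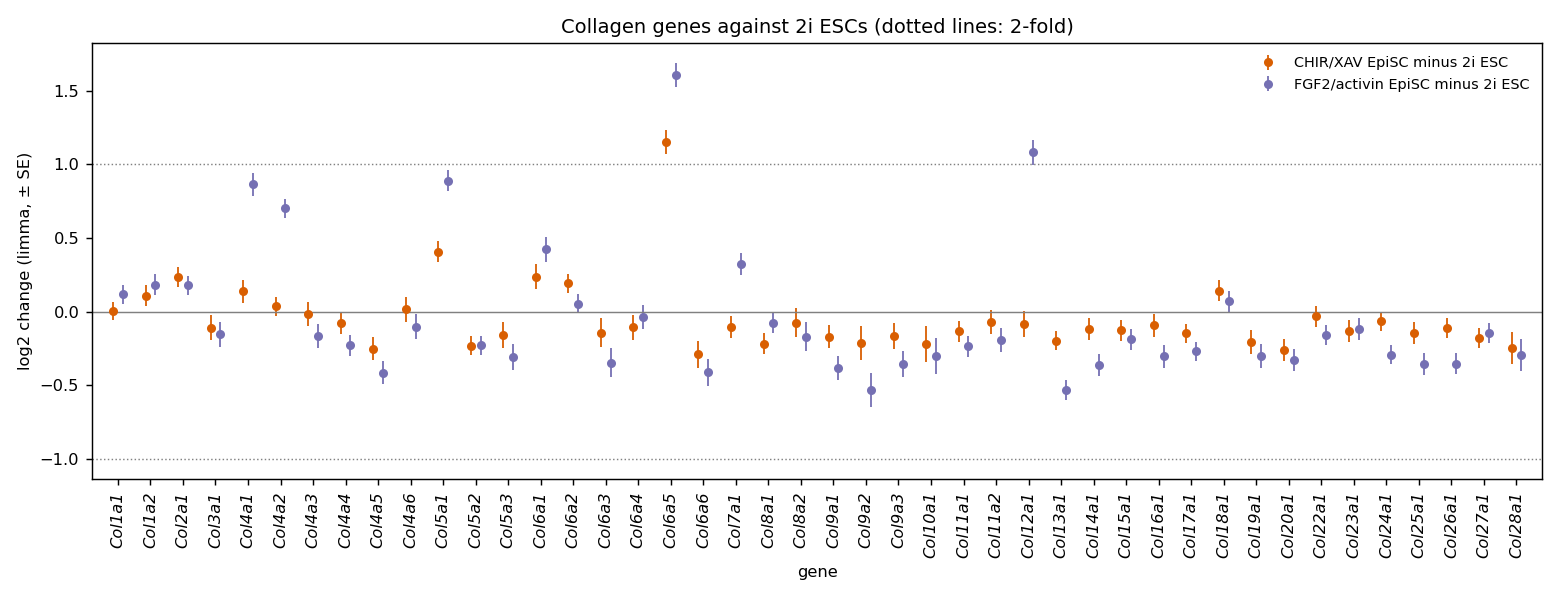
Log2 change against 2i ESCs (y axis) of the 44 collagen genes (x axis), with CHIR/XAV EpiSCs at the left and FGF2/activin EpiSCs at the right of each gene. Points are limma estimates with bars of 1 SE either way, and dotted lines mark 2-fold. Most points lie between -0.53 and 0.5, with Col4a1, Col4a2, Col5a1, Col6a5 and Col12a1 above that in FGF2/activin EpiSCs. Col6a5 also lies above it in CHIR/XAV EpiSCs, at 1.15. Its second probe set, not drawn, was at -0.11 in CHIR/XAV and -0.07 in FGF2/activin EpiSCs.

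Between the 2 EpiSC groups, 12 of the 25 integrins were lower and 3 higher in CHIR/XAV EpiSCs. These groups share a strain and differ in medium. The labels give no passage or clone, so a difference in either cannot be told apart from one in medium. Over all members 13 were higher (20.5% of all genes) and 22 lower (21.1%) in CHIR/XAV EpiSCs. Of these, 9 were lower by 2-fold or more, 11.4% of members with 2.5% of all genes. None was higher by 2-fold or more at any p in limma's fit, where 1.62% of all genes were called so, and the highest value was 0.74, for Itga4. Integrins made up 8 of the 9: Itga8 (-2.37 ± 0.08, adjusted p = 5.06e-11), Itga5 (-2.32 ± 0.07, adjusted p = 8.5e-12), Itga1 (-1.67), Itgb4 (-1.39), Itgb8 (-1.25), Itgav (-1.24), Itga3 (-1.20) and Itgb3 (-1.12). Col12a1 was the ninth, at -1.17 ± 0.09 (adjusted p = 9.05e-08). All of the 12 integrins lower in CHIR/XAV EpiSCs had groups that did not overlap, and the smaller differences included Itgb1 (-0.77, adjusted p = 9.17e-07) and Itga6 (-0.57, adjusted p = 1.66e-05). Itgb5 was not called, at 0.06 ± 0.08 (adjusted p = 0.527).

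Of the 10 laminins, 4 were lower and 2 higher in CHIR/XAV than in FGF2/activin EpiSCs, where 21.1% and 20.5% of all genes were. Lamb1 was lower at -0.65 (adjusted p = 5.76e-05), Lamb2 at -0.62 and Lamc1 at -0.61 (adjusted p = 0.000413). The fourth, Lama5, differed by -0.31 (adjusted p = 0.0203). That call was lost with quantile normalization (-0.18, adjusted p = 0.151), without CHIR/XAV array 1 (-0.23), without CHIR/XAV array 2 (-0.26) and without FGF2/activin array 2 (-0.30). Lama1 was not called, at 0.02 ± 0.07 (adjusted p = 0.857). Lama4 (0.48) and Lama3 (0.34), both with every group mean under 6, were higher in CHIR/XAV EpiSCs. Of the 44 collagens, 6 were lower and 8 higher in CHIR/XAV EpiSCs (21.1% and 20.5% of all genes). Col4a1 (-0.73, adjusted p = 3.72e-06) and Col4a2 (-0.67, adjusted p = 1.65e-06) were lower together. Beside Col12a1, the others lower were Col5a1 (-0.48), Col6a5 (-0.46 on its kept probe set) and Col7a1 (-0.43). The 8 higher ones, by 0.21 to 0.34, had every group mean under 6. The count of members higher in CHIR/XAV EpiSCs fell to 6 without FGF2/activin array 1 and to 7 without FGF2/activin array 2, CHIR/XAV array 1 or CHIR/XAV array 2. With quantile normalization it was 5, with 23 lower (17.9% of calls higher, with 50.6% over all genes). The median change of members was then -0.048 and that of all genes 0.0083, against 0.06 and 0.05 as deposited.

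**Figure D4:**
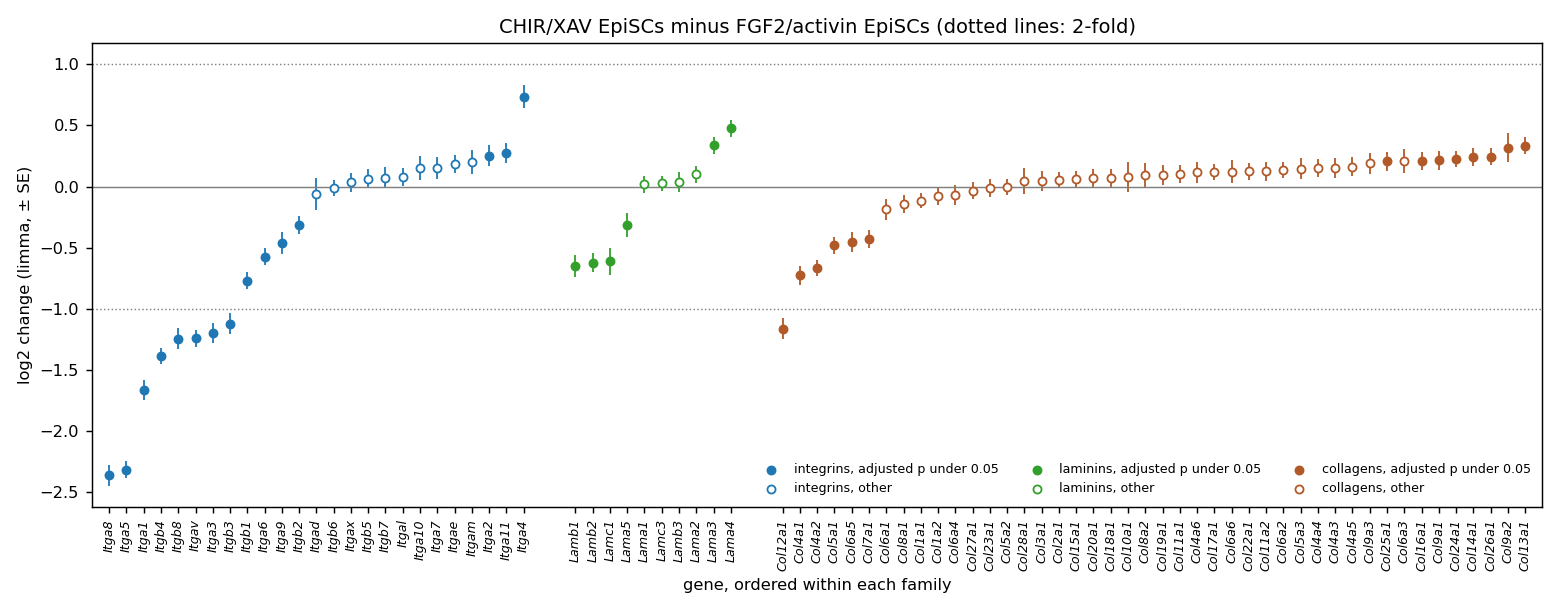
Log2 change of each of the 79 members (x axis, ordered within integrins, laminins and collagens) in CHIR/XAV EpiSCs minus FGF2/activin EpiSCs (y axis), as limma estimates with bars of 1 SE either way. Filled points have an adjusted p under 0.05 and dotted lines mark 2-fold. The 9 points under -1 are 8 integrins and Col12a1, and no point lies above 1.

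Itga5 lies on chromosome 15 in a stretch whose other genes were also lower in CHIR/XAV EpiSCs. Among 52 other genes of that stretch, beyond Atf1 and above the dimmest 40%, the median difference between CHIR/XAV and FGF2/activin EpiSCs was -0.63, and 35 of them (67.3%) were called lower. On the other chromosomes 33.3% of 11489 such genes were lower, with a median of -0.05. Against ESCs the median of the stretch was -0.56 in CHIR/XAV EpiSCs and -0.07 in FGF2/activin EpiSCs, next to -0.49 and 1.83 for Itga5 itself. The part of the stretch in the Itga5 difference was not tested. Itgb7, in the same stretch and dim, differed by 0.07 between the EpiSC groups and was named after its values had been seen. Col2a1 lies in the neighbouring stretch, from Amigo2 to Atf1, where the median of 49 genes against ESCs was 0.96 in CHIR/XAV EpiSCs and -0.03 in FGF2/activin EpiSCs, next to 0.23 and 0.18 for Col2a1. Between CHIR/XAV and FGF2/activin EpiSCs the median of that stretch was 0.94, next to 0.06 for Col2a1. The stretches were drawn with earlier results of these arrays known.

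The proteins that carry integrin signals inside the cell were followed through 20 measured genes. Of these, 10 rose and 4 fell in CHIR/XAV EpiSCs (24.7% and 22.1% of all genes), and 11 rose and 6 fell in FGF2/activin EpiSCs (27.8% and 33.5%). Rises of 2-fold or more numbered 3 and 6 (5.03% and 6.66% of all genes) and falls 1 and 1 (3.3% and 3.45%). The median changes were 0.19 and 0.53. The fall of 2-fold in CHIR/XAV EpiSCs was that of Src, named after its values had been seen, at -1.19 (adjusted p = 1.1e-09). In FGF2/activin EpiSCs Src rose by 0.78, and it differed by -1.97 between CHIR/XAV and FGF2/activin EpiSCs. Parva, the parvin that links integrin-linked kinase to actin, averaged 7.99 ± 0.05 in CHIR/XAV EpiSCs, 9.84 ± 0.04 in FGF2/activin EpiSCs and 6.44 ± 0.09 in ESCs, rises of 1.55 and 3.39. Zyx, the adhesion protein zyxin, rose by 1.92 and 2.22. Fermt1, the kindlin of epithelia, went both ways: it averaged 7.64 ± 0.05 in CHIR/XAV EpiSCs, 4.76 ± 0.01 in FGF2/activin EpiSCs and 6.16 ± 0.19 in ESCs, changes of 1.48 (adjusted p = 2.61e-09) and -1.40 (adjusted p = 3.75e-09). Tgfb1i1, which encodes the paxillin relative Hic-5, rose by 2.19 in FGF2/activin EpiSCs and differed by -2.03 between CHIR/XAV and FGF2/activin EpiSCs. Between the EpiSC groups 4 adaptors were higher and 11 lower in CHIR/XAV EpiSCs, where 20.5% and 21.1% of all genes were.

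The other ligands moved unevenly. Of 10 basement membrane partners, 4 rose and 3 fell in CHIR/XAV EpiSCs, and 6 rose and 3 fell in FGF2/activin EpiSCs (medians 0.03 and 0.44). Of all genes, 24.7% rose and 22.1% fell in CHIR/XAV EpiSCs, and 27.8% rose and 33.5% fell in FGF2/activin EpiSCs. Nid1, the nidogen that joins laminin to type IV collagen, changed by -1.67 in CHIR/XAV EpiSCs and by -0.29 in FGF2/activin EpiSCs, and its relative Nid2 by -1.19 and -0.83. Smoc1, a calcium-binding basement membrane protein, changed by -1.18 and -2.41, and Npnt, the ligand of the alpha 8 receptor, rose by 0.47 and 1.26. Of 9 other matrix ligands, 5 rose and 2 fell in CHIR/XAV EpiSCs, and 5 rose and 3 fell in FGF2/activin EpiSCs (medians 0.78 and 0.36). Thbs1, thrombospondin 1, averaged 8.66 ± 0.09 in CHIR/XAV EpiSCs, 11.35 ± 0.06 in FGF2/activin EpiSCs and 5.96 ± 0.03 in ESCs, rises of 2.70 and 5.39. Ccn1, a secreted ligand of alpha V integrins, rose by 3.70 and 4.80, whereas its relative Ccn2 rose by 1.99 in CHIR/XAV EpiSCs and fell by 1.13 in FGF2/activin EpiSCs. Fn1, the fibronectin bound by the alpha 5 receptor and named after its values had been seen, averaged 9.54 ± 0.21, 10.84 ± 0.08 and 11.74 ± 0.04 in CHIR/XAV EpiSCs, FGF2/activin EpiSCs and ESCs. It fell in both EpiSC groups, with log2 changes of -2.19 and -0.90.

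Among 21 genes for collagen modification, folding and crosslinking, 13 rose and 4 fell in CHIR/XAV EpiSCs (24.7% and 22.1% of all genes) and 16 rose and 2 fell in FGF2/activin EpiSCs (27.8% and 33.5%), with median changes of 0.41 and 0.86. Plod2, a lysyl hydroxylase, averaged 10.71 ± 0.03, 11.19 ± 0.10 and 8.73 ± 0.05 in CHIR/XAV EpiSCs, FGF2/activin EpiSCs and ESCs, and P3h2, a prolyl hydroxylase of basement membrane collagen, rose by 1.67 and 1.50. Bmp1, a protease that trims procollagen, rose by 0.49 and 2.17. Pcolce, which enhances that trimming, fell by 1.21 in CHIR/XAV EpiSCs and rose by 0.86 in FGF2/activin EpiSCs. Between the EpiSC groups 15 of the 21 were lower and 2 higher in CHIR/XAV EpiSCs, where 21.1% and 20.5% of all genes were. Of 10 matrix proteases and inhibitors, 6 rose and 4 fell in CHIR/XAV EpiSCs (24.7% and 22.1% of all genes). In FGF2/activin EpiSCs 6 rose and 3 fell (27.8% and 33.5%). Mmp2, the gelatinase that cleaves type IV collagen, rose by 3.08 and 2.77, and Timp3, a matrix-bound inhibitor, by 0.98 and 3.12, while Timp1 fell by 2.16 in CHIR/XAV EpiSCs. Ddr1, the collagen receptor kinase outside the integrin family, averaged 8.55 ± 0.05, 8.50 ± 0.05 and 6.01 ± 0.03 in CHIR/XAV EpiSCs, FGF2/activin EpiSCs and ESCs, rises of 2.54 and 2.48.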

How the data were processed

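Total RNA of the 9 samples was hybridised to single-colour Affymetrix arrays. The authors deposited a log2 expression value for each probe set and array, computed by RMA (per the submitters' processing notes, which also name Partek). No version is given in the sources used here. That the scale is log2 follows from the range of the first array, 3.08 to 14.3; array medians were 5.57 to 5.65. Without detection calls, dim genes and background are not separated, and a difference against a dim group may understate a change. With arrays, the number of arrays (3 a group) limits the precision.

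Of 35399 probe sets, 21789 carried 1 symbol in the platform annotation, 1621 several and 11989 none; only the first were used. Symbols were updated through gene identifiers to RefSeq (GRCm38.p6), which named 19856 of 19938 genes. For the 999 genes with several probe sets (3 members) the brightest was used. All 9 arrays entered 1 fit in limma 3.58.1 (R 4.3.3; lmFit, contrasts.fit and eBayes, no covariates, no filter), with Benjamini-Hochberg adjustment over all genes. The fit was tested on simulated data with known changes. Replicate numbers in the titles were not used as pairs. Deviations of same-numbered arrays correlated at -0.07 to 0.24 (Pearson r over genes), and those of differently numbered arrays at -0.23 to 0.18. The 2 ranges overlap and do not settle whether the numbers carry a pairing.

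Members, classes and gene lists were chosen with earlier results of these data known. Genes named are a panel of 16 members, in each comparison up to 8 of the 2-fold rises and of the 2-fold falls whose groups did not overlap, the member with the highest mean of each class, up to 2 called genes of each list, and Itga2b. The closing part on processing gives the alternatives tried. Ptk2, Spp1, Fbn1, Adamts2, Loxl2, Mmp15 and Gp6, of the lists, were not analysed here.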

Additional observations from a re-analysis of the deposited data

Results flagged for a closer look

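In 4 integrin genes the change against ESCs was called in opposite directions in the 2 EpiSC groups, lower in CHIR/XAV EpiSCs and higher in FGF2/activin EpiSCs. The difference between the 2 changes, tested as CHIR/XAV minus FGF2/activin EpiSCs in limma's fit, was -2.32 on the log2 scale for Itga5 (adjusted p = 8.5e-12). It was -1.24 for Itgav (adjusted p = 6.14e-09), -1.39 for Itgb4 (adjusted p = 8.62e-10) and -1.12 for Itgb3 (adjusted p = 1.2e-07). In each of these genes the 3 CHIR/XAV arrays lay below the 3 ESC arrays, and the 3 FGF2/activin arrays above them.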

How the results depend on the processing

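Alternatives concerned the probe set (mean instead of brightest), dim genes (the dimmest 40% left out, with 38 members remaining), the variance (trend and robust; only the groups compared; array weights), scaling (quantile normalization; centring on array medians), a replicate block, and each array in turn. Counts of 2-fold members moved least: in CHIR/XAV against ESCs 5 to 7 rose and 2 fell, in FGF2/activin against ESCs 11 to 12 rose and 2 fell, and in CHIR/XAV against FGF2/activin EpiSCs 0 were higher and 8 to 9 lower. Counts without the fold limit moved more. Without the dimmest 40% of genes the members lower in CHIR/XAV than in ESCs numbered 9 (17 as deposited), those lower in FGF2/activin EpiSCs than in ESCs 8 (32), and those higher in CHIR/XAV than in FGF2/activin EpiSCs 5 (13), with fewer genes tested. Median changes of members became 0.020, 0.49 and -0.37 there, against -0.09, -0.12 and 0.06. Median centring gave 38 lower in CHIR/XAV EpiSCs than in ESCs. Quantile normalization gave 21 lower in FGF2/activin EpiSCs than in ESCs, 5 higher in CHIR/XAV than in FGF2/activin EpiSCs with a median of -0.048, and turned Col18a1 in FGF2/activin EpiSCs to -0.18, against 0.07. The cause was not tested.

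With each array left out, 6 to 14 members were higher in CHIR/XAV than in FGF2/activin EpiSCs (6 without FGF2/activin array 1, 7 without FGF2/activin array 2, CHIR/XAV array 1 or CHIR/XAV array 2) and 21 to 22 lower. Against ESCs, 14 to 18 rose and 12 to 19 fell in CHIR/XAV EpiSCs, and 24 to 27 rose and 25 to 32 fell in FGF2/activin EpiSCs. With the replicate block, 18 rose and 16 fell in CHIR/XAV EpiSCs, 27 rose and 31 fell in FGF2/activin EpiSCs, and 12 were higher and 22 lower between the EpiSC groups, and no count moved by over 1.5 times. Of 1965 values for 39 members and 17 alternatives, 1906 stayed on their side of the threshold, 44 lost the call and 14 gained one. The last, Col18a1 with quantile normalization, changed sign and was then called. The 1906 include changes near 0 whose sign turned without a call in either fit, such as Col1a1 in CHIR/XAV EpiSCs against ESCs (-0.016 to 0.024 with single arrays left out).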
